A study of Rattus norvegicus with 10 samples.

Results

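Receptors for acetylcholine, with the enzyme that degrades it, were followed in the jejunum of rats dosed by mouth with A-998679. This experimental compound enhances signalling through the α4β2 nicotinic acetylcholine receptor and also activates the aryl hydrocarbon receptor (AhR). The members were the nicotinic subunit genes Chrna3, Chrna4, Chrna5, Chrna7, Chrnb2 and Chrnb4, the muscarinic receptor genes Chrm2 and Chrm3, and Ache, which encodes acetylcholinesterase. Every probe set that the platform annotation assigns to 1 of these 9 genes was taken. This gave 9 probe sets for 8 genes, among 29559 probe sets on the array, with 2 probe sets for Chrm3 and 1 for each other gene. No probe set was assigned to Ache in the annotation used here, so acetylcholinesterase was not analysed here.

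Male Sprague Dawley rats of 176 to 200 g were dosed daily for 5 days, and RNA from frozen jejunum was hybridised to Affymetrix RAE230 arrays, 1 array per rat. The groups were vehicle (0.2% hydroxypropylmethylcellulose at 10 ml/kg/day, 3 rats), 30 mg/kg/day (2 rats), 100 mg/kg/day (3 rats) and 200 mg/kg/day (2 rats) of A-998679. A further rat of the 30 mg/kg group that the series' design text counts was not analysed here. No separation of tissue layers was stated, and epithelial, muscle and enteric neuron transcripts were all measured.

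Acetylcholine is released by motor neurons and interneurons of the gut wall and acts on receptors of both classes. Nicotinic receptors are pentameric ion channels that carry fast transmission between enteric neurons, where subunits α3, α5 and β4 are typical, while the α4β2 combination is best known from the brain. Muscarinic receptors are G protein-coupled: M2, encoded by Chrm2, signals through inhibitory G proteins, and M3, encoded by Chrm3, activates phospholipase C and drives smooth muscle contraction and epithelial secretion.

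Promoter sequences are shown for the subunits that make up the receptor enhanced by the compound (Chrna4 and Chrnb2), for the subunit with the smallest p against vehicle (Chrna3) and for the receptor with the brightest probe set (Chrm3). The 250 bases before each gene's annotated start were taken from RefSeq on build GRCr8, in which all 9 genes were matched by symbol. They were searched on both strands for the AhR core motif GCGTG, and matches stand in capitals as they read on the strand shown.
Chrna4 (chr3:188534527-188534776, minus strand): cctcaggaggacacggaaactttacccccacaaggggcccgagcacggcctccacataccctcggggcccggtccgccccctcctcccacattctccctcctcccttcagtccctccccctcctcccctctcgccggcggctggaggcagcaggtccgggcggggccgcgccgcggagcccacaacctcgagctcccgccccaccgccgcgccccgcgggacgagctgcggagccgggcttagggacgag
Chrnb2 (chr2:177487307-177487556, minus strand): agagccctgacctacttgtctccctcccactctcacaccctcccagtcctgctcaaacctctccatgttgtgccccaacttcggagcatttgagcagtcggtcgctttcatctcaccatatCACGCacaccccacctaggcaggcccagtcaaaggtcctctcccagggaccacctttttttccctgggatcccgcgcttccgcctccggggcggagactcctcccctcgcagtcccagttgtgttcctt
Chrna3 (chr8:64311252-64311501, minus strand): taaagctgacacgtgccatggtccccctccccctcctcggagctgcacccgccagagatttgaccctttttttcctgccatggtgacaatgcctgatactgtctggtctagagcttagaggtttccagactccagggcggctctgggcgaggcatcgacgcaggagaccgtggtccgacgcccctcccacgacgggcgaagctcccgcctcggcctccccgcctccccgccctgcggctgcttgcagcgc
Chrm3 (chr17:64696677-64696926, plus strand): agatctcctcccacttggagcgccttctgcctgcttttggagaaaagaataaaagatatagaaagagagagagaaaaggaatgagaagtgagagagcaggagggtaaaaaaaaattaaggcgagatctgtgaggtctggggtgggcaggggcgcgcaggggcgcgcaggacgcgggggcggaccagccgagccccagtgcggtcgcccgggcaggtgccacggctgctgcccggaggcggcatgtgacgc
The motif occurred once in the window of Chrnb2, beginning 129 bases before the start, and once in that of Chrnb4, beginning 197 bases before the start. The other 7 windows did not hold these letters, and 25.9% of all 33469 promoter windows of this length did. A match describes the sequence alone.

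The values are intensities on the log2 scale, where a step of 1 is a doubling, and a probe set is judged only against itself on other arrays. Probe sets were ranked by their mean over the arrays, and those below the 40th percentile, which lies at a mean of 4.89, were left out of the main test. Both Chrm3 probe sets lay above this limit, the brighter at percentile 80.6 and the dimmer at percentile 48.0. The remaining 7 lay below it, in order Chrm2 (percentile 38.0), Chrnb4 (36.2), Chrna5 (33.5), Chrna7 (33.4), Chrna3 (24.7), Chrna4 (4.94) and Chrnb2 (4.48). Chrm2 was thus the member just outside the limit, with a mean of 4.75, and the dimmer Chrm3 probe set the one just inside it, with a mean of 5.39. Of 90 possible values, 12 were blank, and all 12 belonged to nicotinic subunits.

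The jejunum label was met by bright enterocyte transcripts: Fabp1, a fatty acid binding protein, averaged 13.05. Array medians lay between 5.86 and 5.90, and arrays correlated with each other at 0.863 to 0.930 across probe sets. A score over 5 liver markers, the mean log2 difference from the vehicle mean, split the rats of every group, with rat 1 the highest in each. It ranged from -1.96 to -0.46 at 30 mg/kg, from -1.70 to 0.28 at 100 mg/kg and from -2.55 to 0.26 at 200 mg/kg, against 1.23 in vehicle rat 1 and -0.45 and -0.78 in the other vehicle rats. Without vehicle rat 1 the number of probe sets called at 100 mg/kg was 2204 in place of 2, and the value without it is given where a call of a receptor depends on it.

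**Figure D1:**
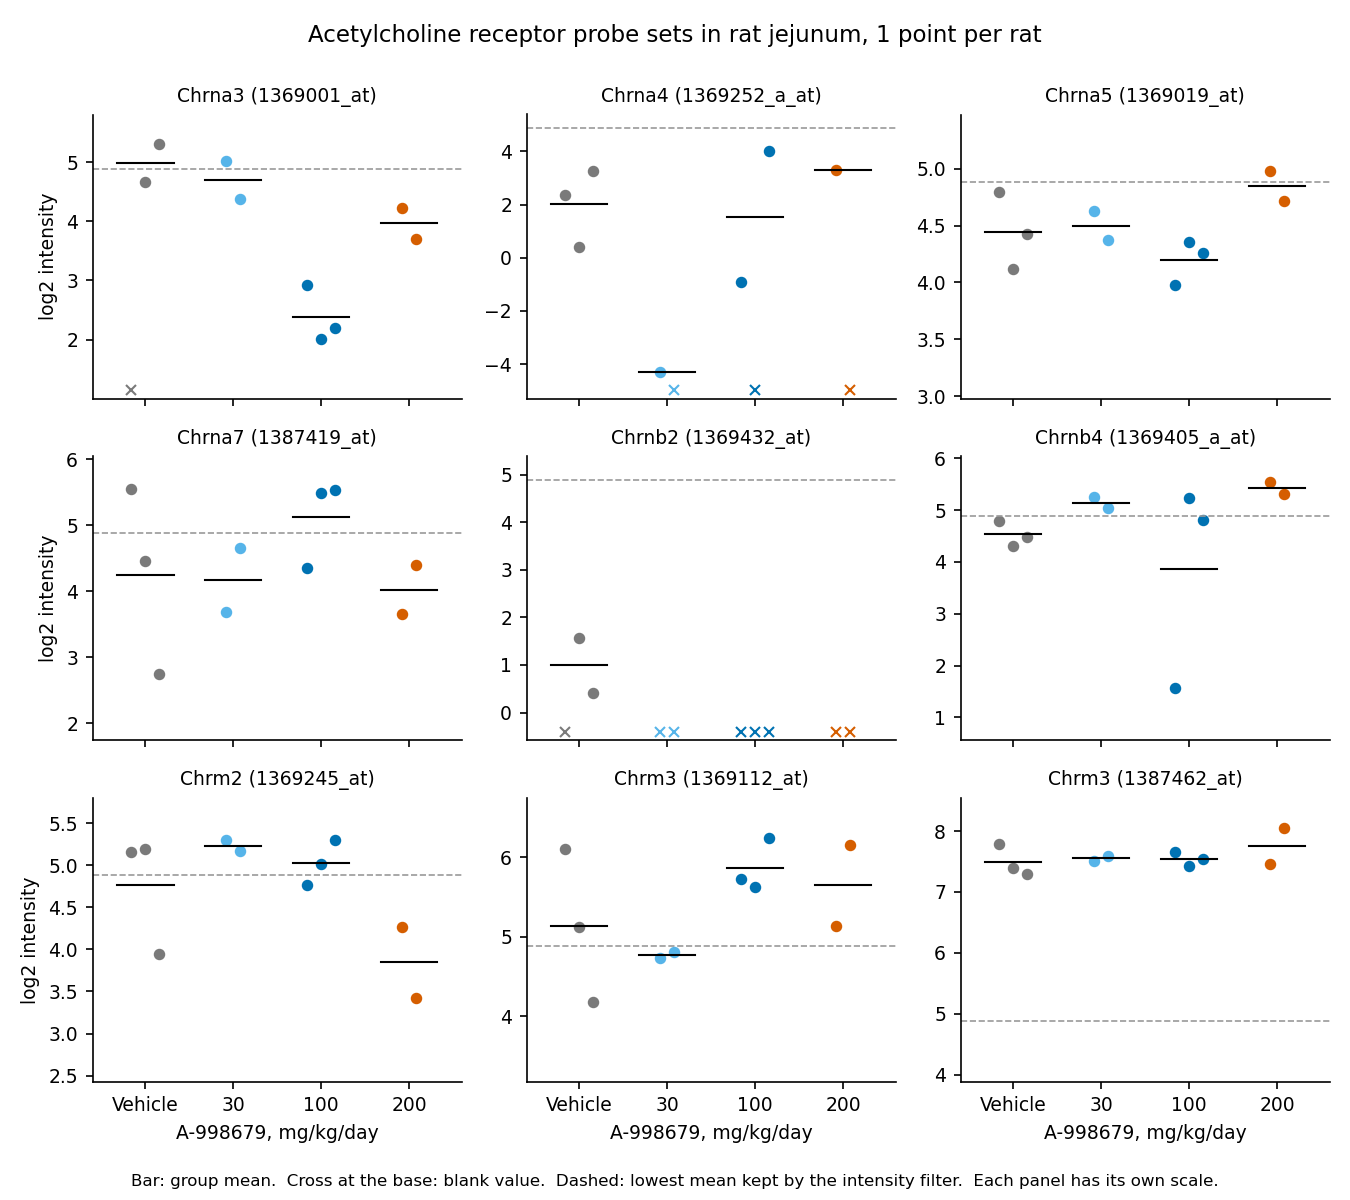
Log2 intensity of the 9 acetylcholine receptor probe sets (vertical axes, 1 scale per panel) in vehicle rats and in rats given 30, 100 or 200 mg/kg/day of A-998679 (horizontal axes). Points are rats, bars are group means, crosses are blanks and the dashed line is the lowest mean kept by the filter (4.89). The brighter Chrm3 probe set stays between 7.29 and 8.05, while Chrna3 drops to between 2.00 and 2.92 at 100 mg/kg.

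The brighter probe set of the muscarinic receptor gene Chrm3 had the smallest range of all 9 member probe sets, 0.76. It read 7.79, 7.39 and 7.29 in vehicle rats, 7.51 and 7.59 at 30 mg/kg, 7.65, 7.43 and 7.54 at 100 mg/kg, and 7.46 and 8.05 at 200 mg/kg. Every dose group overlapped the vehicle rats, and only rat 2 of the 200 mg/kg group lay above all of them. Its mean was 7.55 ± 0.06 (SD, n = 2) at the lowest dose, 7.54 ± 0.11 (SD, n = 3) at the middle dose and 7.75 ± 0.41 (SD, n = 2) at the highest dose, set against 7.49 ± 0.26 (SD, n = 3) under vehicle. The log2 difference was 0.06 at 30 mg/kg, with a 95% interval of -0.42 to 0.55 and a limma adjusted p of 1. For 100 mg/kg it was 0.05, with an interval of -0.38 to 0.48 and a limma adjusted p of 0.900. For 200 mg/kg it was 0.27, or 1.20-fold, with an interval of -0.22 to 0.75 and a limma adjusted p of 0.609. None passed the test, and the intervals do not show that the groups were equal.

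The dimmer Chrm3 probe set, which the annotation ties to another sequence record of the gene, was less even. It read 6.10, 5.13 and 4.18 in vehicle rats, 4.74 and 4.81 at 30 mg/kg, 5.72, 5.63 and 6.25 at 100 mg/kg, and 5.13 and 6.16 at 200 mg/kg. The vehicle rats alone spanned nearly the whole range, and all 3 dose groups overlapped them. Differences from vehicle were -0.36 (SE 0.51), 0.73 (SE 0.46) and 0.51 (SE 0.51) for 30, 100 and 200 mg/kg, with limma adjusted p of 1, 0.401 and 0.689. The rats at 100 mg/kg all lay above both rats at 30 mg/kg, with a difference of 1.09 (SE 0.51, limma adjusted p = 0.285). That difference was called when only these 2 groups were fitted (adjusted p = 0.0434), while leaving out single arrays gave adjusted p of 0.127 to 0.634. With a marker score as a covariate its sign turned, to -0.86 (SE 0.93) with the enteric neuron score and -1.03 (SE 0.62) with the smooth muscle score. Neither score overlapped between these 2 groups, so the covariate fits cannot tell dose from score. The brighter probe set differed by -0.01 in the same comparison, so the probe sets of this gene did not give the same reading.

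With both Chrm3 probe sets tested, 0 of 2 were called by limma in any comparison with vehicle or between doses, nor in the F test over the doses, and 0 of 2 had an unadjusted p up to 0.05. Over all probe sets tested, the share called was 0.0113%, 0.0113% and 0.0226% for 30, 100 and 200 mg/kg against vehicle, 0.56% between 100 and 30 mg/kg, 0.0226% between 200 and 100 mg/kg and 0.0453% in the F test. At the unadjusted level the shares were 4.66%, 18.0% and 12.4% for 30, 100 and 200 mg/kg against vehicle, 19.2% and 6.06% for the comparisons between doses in the order above, and 15.6% in the F test. A plain 2-group test without moderation called 0 of all probe sets above the limit after Benjamini-Hochberg adjustment in each pairwise comparison. Without adjustment it called 1 of 2 Chrm3 probe sets, the dimmer probe set between 100 and 30 mg/kg. At these background shares a count of 0 among 2 probe sets is not a result about the receptors.

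**Figure D2:**
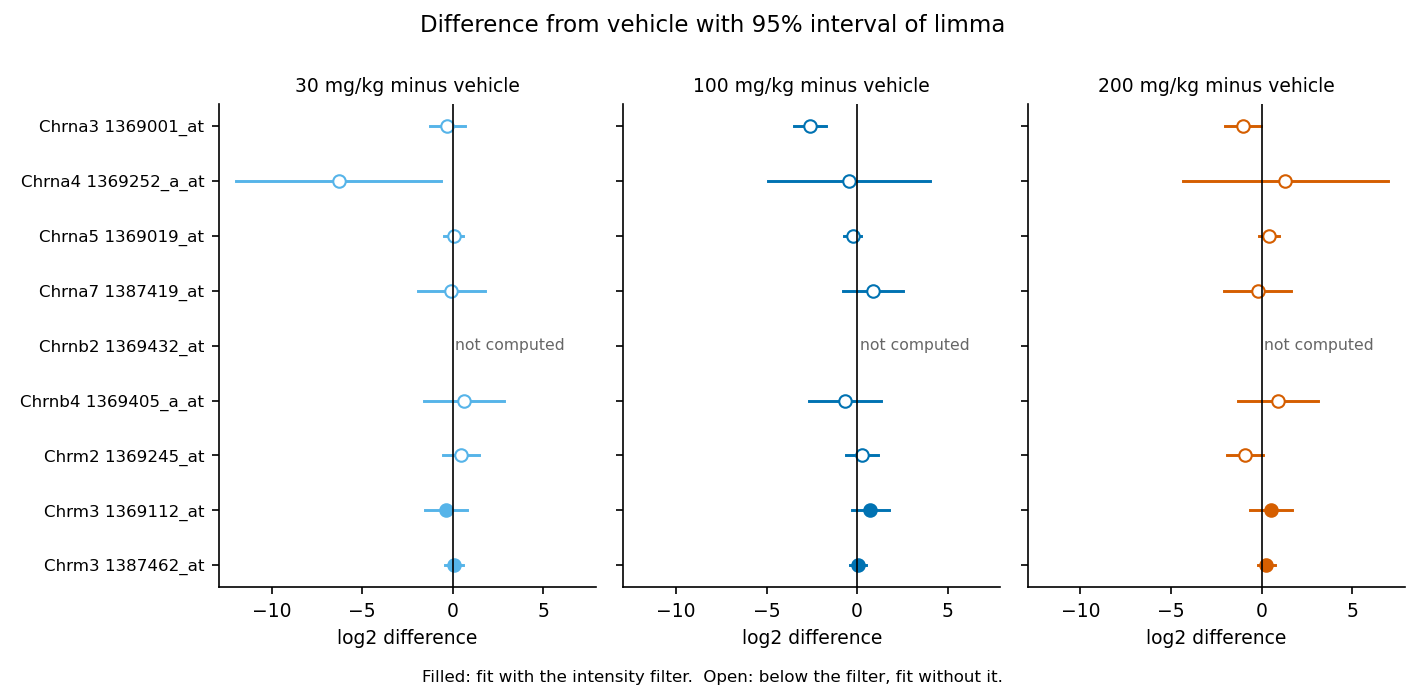
Log2 difference from vehicle (horizontal axes) with the 95% interval of limma for each acetylcholine receptor probe set (rows) at 30, 100 and 200 mg/kg/day. Filled points come from the fit with the intensity filter (Chrm3) and open points from the fit without it. Chrna3 at 100 mg/kg lies at -2.61, and the widest intervals are those of Chrna4.

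The probe sets below the limit were fitted without the filter, over 26017 probe sets, of which 8 were members. No member was called there in any comparison, where the share called over all probe sets was 0.0% at 30 and 100 mg/kg, 0.0307% at 200 mg/kg, 0.0615% between 100 and 30 mg/kg, 0.0346% between 200 and 100 mg/kg and 0.00769% in the F test. At an unadjusted p up to 0.05, 1 of 8 members stood in each comparison (Chrna4 at 30 mg/kg, Chrna3 in the others) except that of 200 with 100 mg/kg, where 3 did (Chrna3, Chrna5 and Chrm2). The shares of all probe sets at that level were 5.01%, 13.8% and 10.2% for 30, 100 and 200 mg/kg against vehicle, 15.5% between 100 and 30 mg/kg, 6.43% between 200 and 100 mg/kg and 12.5% in the F test. Chrnb2 had no value in any dosed rat and could not be tested.

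Chrna3, the α subunit typical of ganglionic nicotinic receptors, was the member with the smallest unadjusted p against vehicle. It was blank in vehicle rat 1 and read 4.67 and 5.31 in the other vehicle rats, 5.01 and 4.38 at 30 mg/kg, 2.92, 2.00 and 2.20 at 100 mg/kg, and 4.23 and 3.71 at 200 mg/kg. All rats at 100 and 200 mg/kg lay below the measured vehicle rats, and those at 200 mg/kg lay above those at 100 mg/kg. The difference from vehicle was -2.61 at 100 mg/kg (SE 0.38, unadjusted p = 2.71e-04, limma adjusted p = 0.156) and -1.02 at 200 mg/kg (SE 0.41, adjusted p = 0.473). Between 100 and 30 mg/kg it was -2.32 (adjusted p = 0.0905), and between 200 and 100 mg/kg it was 1.59 (adjusted p = 0.410). The differences from vehicle rest on 2 vehicle rats. With the blank and all low values set to a floor of 3.18, the 10th percentile of all values, the difference at 100 mg/kg was -1.21 (adjusted p = 0.356), and on the log2(intensity + 16) scale it was -0.64. At 200 mg/kg these alternatives gave -0.42 and -0.065. With vehicle rat 1 left out of the fit the difference stayed at -2.61, since that rat has no value, and its adjusted p became 0.0471. The unadjusted p of limma was 2.72e-04 in that fit, so the call came from the adjustment over all probe sets.

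Scores of smooth muscle and enteric neuron markers were also low in the rats in which Chrna3 was low. A score over 9 of 12 listed enteric neuron markers, among them Vip, Prph and Stmn2, ranged from -0.47 to 0.31 in vehicle rats, -0.01 to 0.46 at 30 mg/kg, -1.12 to -0.95 at 100 mg/kg and -0.93 to -0.78 at 200 mg/kg. A score over all 14 listed smooth muscle markers ranged from -0.51 to 0.28 in vehicle rats, 0.08 to 0.42 at 30 mg/kg, -0.91 to -0.87 at 100 mg/kg and -0.85 to -0.50 at 200 mg/kg. Vehicle rat 1, in which Chrna3 was blank, had the lowest vehicle score on both lists. With the enteric neuron score as a covariate the Chrna3 difference at 100 mg/kg was -0.69 (SE 1.08, adjusted p = 0.947), and with the smooth muscle score it was -0.51 (SE 0.98, adjusted p = 0.953). The sign of the difference at 200 mg/kg turned under both, to 0.62 (SE 0.93, adjusted p = 0.897) with the neuron score and 0.69 (SE 0.80, adjusted p = 0.866) with the muscle score. Among rats with a Chrna3 value, neither score at 100 or 200 mg/kg overlapped vehicle, so these fits cannot tell dose from score. A score over 2 of 5 listed enteric glia markers moved less. It ranged from -0.09 to 0.16 in vehicle rats, -0.10 to 0.67 at 30 mg/kg, -0.24 to -0.13 at 100 mg/kg and -0.42 to -0.31 at 200 mg/kg. At 100 mg/kg Gfap read 5.29, 5.94 and 5.17, against 5.06, 5.18 and 5.21 in vehicle rats. There S100b read 6.15, 5.56 and 6.12, against 6.57, 6.39 and 6.87. The score over 5 adipose markers ranged from -0.26 to 0.49 in vehicle rats, 0.05 to 1.94 at 30 mg/kg, -1.96 to -0.82 at 100 mg/kg and -1.09 to -0.93 at 200 mg/kg. That over 2 erythrocyte markers ranged from -1.37 to -0.86 at 100 mg/kg and from -1.83 to -0.95 at 200 mg/kg. In vehicle rats it ranged from -0.63 to 0.57. The part of adipose and erythrocyte markers in the result was not tested. In this bulk tissue, fewer neurons or muscle cells in a piece and less RNA per cell cannot be told apart.

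**Figure D3:**
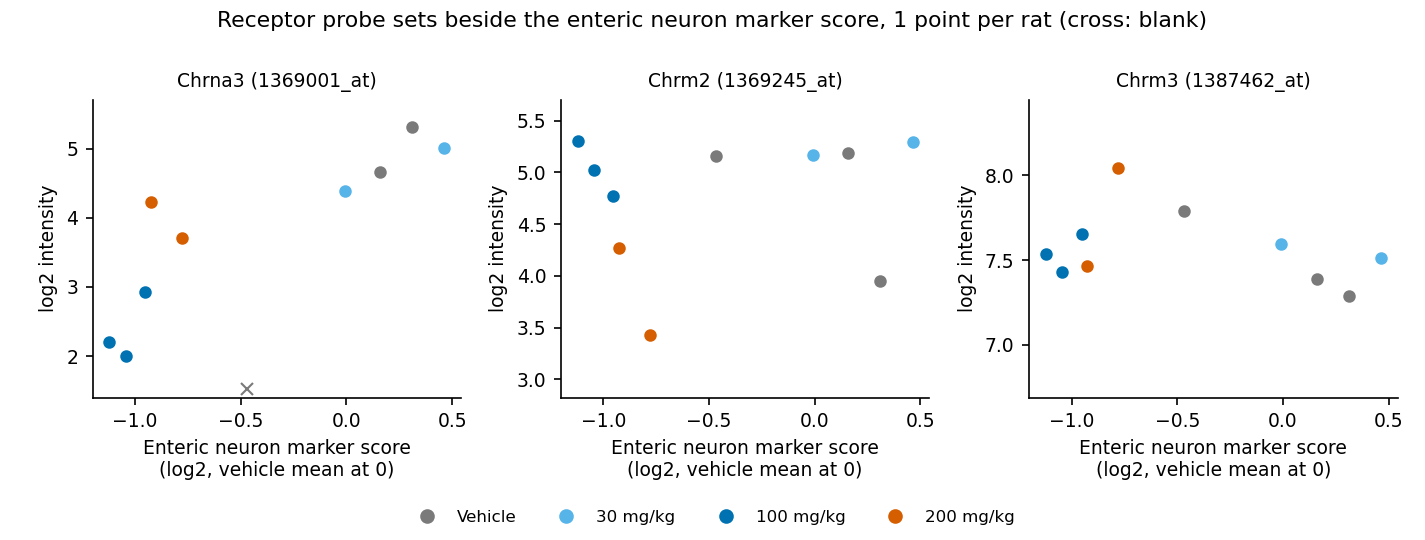
Log2 intensity of Chrna3, Chrm2 and the brighter Chrm3 probe set (vertical axes) against the enteric neuron marker score of the same rat (horizontal axes, log2 difference from the vehicle mean). Points are rats coloured by dose group and the cross is the blank of vehicle rat 1. The rats at 100 and 200 mg/kg sit at scores of -0.78 and lower, where Chrna3 reads 2.00 to 4.23 and Chrm3 reads 7.43 to 8.05.

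Chrna5 and Chrnb4 encode partners of α3 in ganglionic receptors. Chrna5, an accessory α subunit, read 4.80, 4.12 and 4.43 in vehicle rats, 4.62 and 4.37 at 30 mg/kg, 3.98, 4.36 and 4.26 at 100 mg/kg, and 4.98 and 4.72 at 200 mg/kg. It overlapped vehicle at every dose, with differences of 0.05, -0.25 and 0.40 at 30, 100 and 200 mg/kg. Its rats at 100 mg/kg all lay below those at 30 mg/kg, with a difference of -0.30 (SE 0.23, limma adjusted p = 0.561), and those at 200 mg/kg all lay above those at 100 mg/kg, with a difference of 0.65 (SE 0.23, limma unadjusted p = 0.0243, adjusted p = 0.653).

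Chrnb4, the β subunit that pairs with α3, read 4.80, 4.31 and 4.49 in vehicle rats, 5.25 and 5.03 at 30 mg/kg, 1.56, 5.24 and 4.80 at 100 mg/kg, and 5.54 and 5.30 at 200 mg/kg. Both rats at 30 mg/kg and both at 200 mg/kg lay above every vehicle rat, and rat 1 at 100 mg/kg lay far below all others. The differences from vehicle were 0.61 (SE 0.95), -0.66 (SE 0.85) and 0.89 (SE 0.95) for 30, 100 and 200 mg/kg, none of them past the test (limma adjusted p = 1, 0.727 and 0.757). Without rat 1 of the 100 mg/kg group the difference there was 0.49, so its sign rests on that single rat. All groups share the same estimate of the spread. The SD was 2.01 at 100 mg/kg, against 0.24 under vehicle, 0.16 at 30 mg/kg and 0.17 at 200 mg/kg. The SEs at 30 and 200 mg/kg were thus widened by a rat outside those comparisons.

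Chrna7, whose product forms homomeric receptors, read 5.54, 4.45 and 2.74 in vehicle rats, 3.69 and 4.65 at 30 mg/kg, 4.35, 5.49 and 5.54 at 100 mg/kg, and 3.65 and 4.39 at 200 mg/kg. The vehicle rats covered the range of all dosed rats. Differences from vehicle were -0.08, 0.88 and -0.23 at 30, 100 and 200 mg/kg, each with an SE of 0.71 to 0.79.

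The subunits of the compound's receptor were barely measured. Chrna4 read 2.36, 0.40 and 3.28 in vehicle rats, -4.29 and a blank at 30 mg/kg, -0.91, a blank and 4.00 at 100 mg/kg, and 3.32 and a blank at 200 mg/kg. Its values covered 8.29 log2 units with no separation by dose that rests on more than 1 rat. Chrnb2 read 1.57 and 0.42 in vehicle rats 2 and 3 and was blank in vehicle rat 1 and in all 7 dosed rats. At these intensities neither presence nor a change of the α4β2 subunits could be judged.

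Chrm2, the other muscarinic member, read 5.16, 5.19 and 3.95 in vehicle rats, 5.29 and 5.17 at 30 mg/kg, 4.77, 5.02 and 5.30 at 100 mg/kg, and 4.27 and 3.43 at 200 mg/kg. The rats at 200 mg/kg lay below all rats at 30 and 100 mg/kg, while vehicle rat 3 lay between them. The difference from vehicle was -0.92 at 200 mg/kg (SE 0.42, limma adjusted p = 0.512), and that from 100 mg/kg was -1.18 (SE 0.42, unadjusted p = 0.0236, adjusted p = 0.653).

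Among member probe sets with at least 2 values in both groups, those that did not overlap vehicle were 1 of 7 at 30 mg/kg (Chrnb4), 1 of 8 at 100 mg/kg (Chrna3) and 2 of 7 at 200 mg/kg (Chrna3 and Chrnb4). Over all probe sets the shares were 17.9%, 22.9% and 24.8%. Between 100 and 30 mg/kg 3 of 7 did not overlap, against 44.0% of all probe sets, and between 200 and 100 mg/kg 4 of 7 did not, against 26.3%. The comparisons share control or dose groups and are not independent of each other.

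Other receptor genes of the family gave no probe set to test. Of 13 further subunit and muscarinic receptor genes, 9 were on the array with 10 probe sets, and all 10 lay below the limit, with means between 1.39 and 4.51 and 1 probe set (Chrm1) blank on every array. Of their 100 possible values, 31 were blank.

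The list of genes for acetylcholine synthesis, storage and breakdown was measured in part. Of 9 listed genes, 6 were tested with 8 probe sets, and 0 were called by limma in any comparison. At an unadjusted p up to 0.05 there were 0 at 30 and 100 mg/kg and 1 at 200 mg/kg against vehicle, and 2 between 100 and 30 mg/kg, where 4.66%, 18.0%, 12.4% and 19.2% of all probe sets reached that level. No probe set of the list stood at that level between the 2 highest doses. The median difference from vehicle was -0.07, 0.15 and 0.01 at the 3 doses from low to high, beside 0.01 over all probe sets tested. Slc5a7, the high-affinity choline transporter of cholinergic nerve endings, averaged 5.65 ± 0.22 (SD, n = 2), 5.12 ± 0.16 (SD, n = 3) and 5.19 ± 0.33 (SD, n = 2) in rats given 30, 100 and 200 mg/kg, against 5.31 ± 0.17 (SD, n = 3) under vehicle. All 3 dose groups overlapped the vehicle rats, and its F test gave an adjusted p of 0.411 (limma). Bche, which encodes butyrylcholinesterase, a second enzyme that splits acetylcholine, differed from vehicle by 0.64 at 200 mg/kg (SE 0.29, limma adjusted p = 0.421). Chka, a choline kinase, differed by 0.33 at 200 mg/kg (SE 0.21, adjusted p = 0.538). The dimmest of 3 probe sets of the choline transporter Slc44a1 differed by -0.77 at 200 mg/kg (SE 0.23, adjusted p = 0.289), with a blank in vehicle rat 2, and the other 2 probe sets of that gene stayed between 8.94 and 9.51 in all rats. Chat, which makes acetylcholine, lay below the limit with a mean of 4.53. Slc18a3, of the same list, also lay below it, with a mean of 2.24 and 5 blank arrays.

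Of 9 listed chaperones and modulators of nicotinic receptors, only Jak2 and Tmem35a were tested, and 0 were called by limma, with 1 at an unadjusted p up to 0.05 both at 100 mg/kg against vehicle (18.0% of all probe sets) and between 100 and 30 mg/kg (19.2%). Tmem35a, whose product (NACHO) is needed for assembly of α7 receptors, read 4.95, 4.76 and 5.62 in vehicle rats, 5.20 and 5.11 at 30 mg/kg, 4.86, 4.64 and 4.55 at 100 mg/kg, and 4.33 and 4.85 at 200 mg/kg. It differed from vehicle by -0.43 at 100 mg/kg (SE 0.24, adjusted p = 0.351). Its mean of 4.888 lay just above the limit of 4.886. It passed the filter only through the vehicle and 30 mg/kg groups, since its means at 100 and 200 mg/kg, 4.68 and 4.59, lay below the limit. Jak2, a kinase of cytokine signalling that has been tied to α7 receptors, differed by 0.72 at 100 mg/kg (SE 0.24, adjusted p = 0.213).

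Signalling genes downstream of muscarinic receptors were tested with 22 probe sets of 19 genes among 22 listed. None was called against vehicle, with 2, 13 and 8 at an unadjusted p up to 0.05 at 30, 100 and 200 mg/kg, where 4.66%, 18.0% and 12.4% of all probe sets reached that value. The median difference was 0.12, -0.22 and -0.12 at the 3 doses from low to high, beside 0.01 over all probe sets. These values include vehicle rat 1, without which far more of all probe sets were called at 100 mg/kg, as given above. The calls of this list against vehicle without that rat are not given here. Between 100 and 30 mg/kg, 2 of 22 probe sets fell and 0 rose past the adjusted test, beside 0.56% of all probe sets called, and 12 of 22 had an unadjusted p up to 0.05, beside 19.2%. Rgs5, a regulator that ends G protein signalling and is abundant in vessel-associated muscle cells, read 7.43, 6.99 and 7.45 at 100 mg/kg, against 8.86 and 8.54 at 30 mg/kg, a difference of -1.41 (SE 0.21, limma adjusted p = 0.0377). Ppp1r14a, an inhibitor of myosin phosphatase in smooth muscle, read 6.29, 5.81 and 5.58 at 100 mg/kg, against 7.21 and 7.39 at 30 mg/kg, a difference of -1.41 (SE 0.24, limma adjusted p = 0.0498). In fits that left out 1 array the differences were -1.57 to -1.25 for Rgs5 and -1.60 to -1.25 for Ppp1r14a, and both calls were lost in 8 of 10, with adjusted p up to 0.186 and 0.218. With the smooth muscle score as a covariate they were -0.99 (SE 0.39, adjusted p = 0.414) for Rgs5 and -0.81 (SE 0.42, adjusted p = 0.503) for Ppp1r14a. The smooth muscle score was -0.91 to -0.87 at 100 mg/kg, against 0.08 to 0.42 at 30 mg/kg, so these fits cannot tell dose from score. Rgs16, another such regulator, differed by -1.86 in this comparison (SE 0.39, adjusted p = 0.0746).

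Kcnj3 encodes a subunit of the inwardly rectifying potassium channel that M2 receptors open through G protein βγ subunits. One of its probe sets read 4.48, 4.99 and 1.88 in vehicle rats, 4.40 and 4.12 at 30 mg/kg, 4.73, 3.99 and 5.03 at 100 mg/kg, and 7.92 and 8.20 at 200 mg/kg. Both rats at 200 mg/kg lay above every other rat. This probe set passed the filter only through these rats, since its means in the other groups, 3.78 under vehicle, 4.26 at 30 mg/kg and 4.58 at 100 mg/kg, lay below the limit of 4.89. Without the filter the difference from vehicle was 4.27 (SE 0.83, limma adjusted p = 0.229), and with low values at the floor of 3.18 it was 3.84, or 14.3-fold (adjusted p = 0.0954). On the log2(intensity + 16) scale it was 3.09, or 8.54-fold, and was called both without the filter (adjusted p = 0.0416) and with it (0.0269). With the filter the difference of 4.27 had an adjusted p of 0.162. Filtered fits called it with array weights, whose estimate did not converge (3.22, adjusted p = 0.0424), and without vehicle rat 1 (4.62, adjusted p = 0.0436), where the fit without the filter gave 0.104. Without vehicle rat 3, the lowest, it was 3.32 (adjusted p = 0.108 without the filter). Other filtered fits of limma did not call it. The adjusted p was 0.0954 with gene-by-gene array weights and 0.169 with quantile normalization. It was 0.360 with the replicate number as a block and 0.663 with only the 2 groups fitted. Since the rats at 200 mg/kg carried this probe set past the filter, calls with the filter add no support. The other tested Kcnj3 probe set read 5.72 and 5.97 at 200 mg/kg, against 5.79, 5.68 and 5.49 in vehicle rats, a difference of 0.19 (SE 0.18, adjusted p = 0.681). A further one lay below the limit and read 5.63 and 5.36 at 200 mg/kg, against 3.25, 4.83 and 5.29 in vehicle rats. These also lay above every other rat, so the 3 probe sets differed in the size of the separation at 200 mg/kg and in whether there was one.

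**Figure D4:**
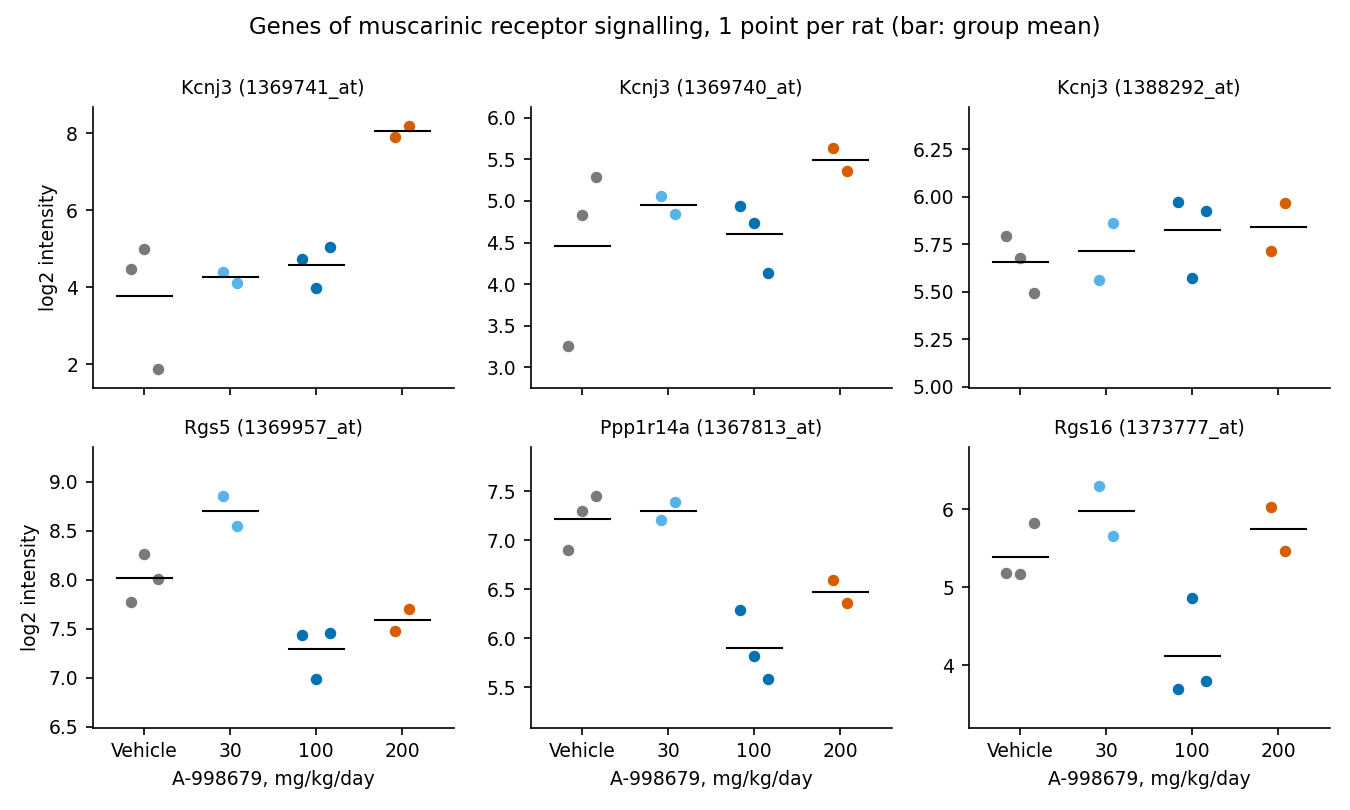
Log2 intensity (vertical axes) of 3 Kcnj3 probe sets and of Rgs5, Ppp1r14a and Rgs16 in vehicle rats and at 30, 100 or 200 mg/kg/day (horizontal axes), with 1 point per rat and the group mean as a bar. One Kcnj3 probe set reads 7.92 and 8.20 at 200 mg/kg, while Rgs5 and Ppp1r14a are lowest at 100 mg/kg.

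The genes whose pattern over the 10 arrays was most like that of the brighter Chrm3 probe set, among 10107 genes compared, were Ercc2 (Pearson r = 0.947), Slc6a20a (r = 0.934) and Sos1 (r = 0.926). They share the arrays and a highest value in rat 2 of the 200 mg/kg group, in which Slc6a20a read 9.60 and Chrm3 8.05. These correlations are a description of the rats and carry no test.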

How the data were processed

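RNA from the jejunum of 10 rats was analysed, 1 Affymetrix RAE230 array per rat. The values deposited are intensities on a log10 scale, 1 per probe set and array (29559 probe sets); the log base was inferred from their range. The authors scanned the arrays and processed them in Rosetta Resolver 7.2. How probes were summarised and arrays scaled was not given in the sources used here, nor was a genome build. A separate deposited table holds the authors' fold changes of single rats against vehicle and was not used.

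Values were converted to log2 and blanks were kept missing. Of the probe sets tested, 271 held a blank, and a mean over measured arrays can read high. Genes were named from the platform annotation (19952 probe sets with 1 symbol, 428 with several, 9179 with none). Probe sets below the 40th percentile of the mean were left out (11823), and 17736 were tested with limma 3.58.1 in R 4.3.3: 1 mean per group over all 10 arrays, moderated errors, two-sided, Benjamini-Hochberg adjustment over all probe sets, called at an adjusted p up to 0.05. Comparisons were each dose with vehicle, 100 with 30 mg/kg, 200 with 100 mg/kg, and an F test over the doses. The procedure was tested on simulated data. A plain 2-group test of equal variance without moderation was run on the same values. Each array is a different rat, so p-values measure the spread between these rats, and with 2 or 3 rats per group their number limits precision. No batch was given in the sources used here. The members and gene lists were chosen with earlier results of these data known. All member probe sets were named with every value. Of other lists, up to 4 tested genes with the smallest F test p were named. Chat, Slc18a3, Chrm1 and further Slc44a1 and Kcnj3 probe sets were added after their values were seen. Cell type scores are the mean log2 difference from the vehicle mean over the tested genes of a list, brightest probe set each. Promoter sequences are from RefSeq (GRCr8). Tables and plots used Python 3.11.15, pandas 2.3.3 and matplotlib 3.10.9.

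Alternatives were no filter, a stricter filter (60% left out), blanks and low values at the 10th percentile, log2(intensity + 16), quantile normalization, median centring, array weights, fits of the 2 groups compared, the plain 2-group test, cell type scores as covariates, the replicate number as a block and each array left out. Gene-by-gene array weights and combinations with the unfiltered table were chosen after seeing the data.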

Additional observations from a re-analysis of the deposited data

How the results depend on the processing

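Over 38 alternatives, 0 of the receptor probe sets tested were called in each comparison, with 4 exceptions of 1 probe set each. Alternatives with the filter tested the 2 Chrm3 probe sets (1 with the stricter filter), and those without it also tested the dimmer receptors. The dimmer Chrm3 probe set was called at 100 mg/kg against vehicle with array weights (0.72, adjusted p = 0.0393) and between 100 and 30 mg/kg when only these 2 groups were fitted and by the plain 2-group test without adjustment. The estimate of array weights did not converge and gave vehicle rat 2 a weight of 8.34; with gene-by-gene weights 0 were called (0.76, adjusted p = 0.105). Chrna3 was the 1 called at 100 mg/kg without the filter and without vehicle rat 1, where its own unadjusted p hardly moved. Leaving out each array gave 0 to 1 calls.

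Signs of small Chrm3 differences from vehicle turned. Leaving out single arrays, the brighter probe set ranged from -0.036 to 0.21 at 30 mg/kg, from -0.050 to 0.20 at 100 mg/kg (-0.0063 without its rat 1) and from -0.025 to 0.56 at 200 mg/kg. The dimmer one ranged from -0.84 to 0.12 at 30 mg/kg, from 0.25 to 1.21 at 100 mg/kg and from -0.0033 to 1.02 at 200 mg/kg. The turned values came without vehicle rat 3, vehicle rat 1, rat 1 of the 100 mg/kg group or rat 2 of the 200 mg/kg group. With the smooth muscle score as a covariate the brighter probe set was at -0.55 for 100 mg/kg and -0.19 for 200 mg/kg, and with the enteric neuron score at -0.35 and -0.063. The dimmer one was at 0.10, -0.93 and -0.75 for 30, 100 and 200 mg/kg with the smooth muscle score, and at -0.87 and -0.81 for 100 and 200 mg/kg with the neuron score. None of these values passed the test, and the cause was not tested. Neither score at 100 mg/kg, nor the neuron score at 200 mg/kg, overlapped vehicle, so those covariate fits cannot tell dose from score.

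The replicate number as a block was fitted with the filter and gave 0 calls of 2 Chrm3 probe sets in each comparison. Deviations of same-numbered rats correlated at -0.306 to 0.238 over 13 pairs, of which 4 exceeded 0.1. In groups of 2 rats the deviations mirror each other, so these values cannot show whether the numbers pair the rats. The liver score was highest in rat 1 of every group. Over all probe sets the block gave 18 calls in place of 99 between 100 and 30 mg/kg. Signal near background limits every nicotinic subunit.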

Other observations

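A pair of muscarinic signalling genes was picked after their values were seen. Gnaq, which lay below the intensity limit and encodes the G protein α subunit through which M3 acts, read 4.77, 2.60 and 3.48 in vehicle rats, 3.54 and 2.83 at 30 mg/kg, 4.83, 5.72 and 5.30 at 100 mg/kg, and 6.25 and 6.02 at 200 mg/kg. Every rat at 100 and 200 mg/kg lay above every other rat, but narrowly, with 4.83 in rat 1 at 100 mg/kg beside 4.77 in vehicle rat 1. The share of all probe sets separated in this way was not computed. Its close relative Gna11 read 8.28, 8.30 and 7.88 in vehicle rats, 7.98 and 8.03 at 30 mg/kg, 8.49, 8.20 and 8.57 at 100 mg/kg, and 8.43 and 8.61 at 200 mg/kg.

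Among other cells of the gut wall, the score over 6 mast cell and macrophage markers was 0.87 to 1.05 at 100 mg/kg, against -0.22 to 0.33 in vehicle rats. It was -0.18 to -0.13 at 30 mg/kg and -0.07 to 0.06 at 200 mg/kg. At 100 mg/kg Mcpt1 read 9.48, 9.66 and 9.56, against 6.24, 6.55 and 8.31 in vehicle rats. There C1qa read 8.47, 8.86 and 8.37, against 7.64, 7.34 and 7.85. Lyz2 was not higher, with 11.79, 11.68 and 11.82, against 11.78, 11.87 and 11.91. The score over 4 tuft cell markers, epithelial cells that can hold Chat, was -0.65 to -0.28 at 30 mg/kg, against -0.16 to 0.17 in vehicle rats. At 200 mg/kg it was -0.45 to -0.18. That over 7 enteroendocrine markers was -0.52 to -0.38 at 30 mg/kg and 0.25 to 0.28 at 200 mg/kg, against -0.09 to 0.12 in vehicle rats. The score over 3 markers of interstitial cells of Cajal ranged from -0.72 to -0.60 at 100 mg/kg and from -0.78 to -0.52 at 200 mg/kg. In vehicle rats it ranged from -0.51 to 0.32. That over 9 enterocyte markers ranged from 0.17 to 0.35 at 100 mg/kg, against -0.26 to 0.17 in vehicle rats.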
